A study of Homo sapiens with 16 samples.

Results

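Transcripts of the transforming growth factor beta (TGF-beta) ligands, their receptors and the proteins that keep the ligands latent were followed in mesenchymal stem cells (MSCs) made senescent with mitomycin C (MmC) and in cells given growth differentiation factor 11 (GDF11). The 10 genes were taken by name from the 60649 genes of the count table and were TGFB1, TGFB2, TGFB3, TGFBR2, TGFBR3, LTBP1, LTBP2, LTBP3, LTBP4 and TGFBI. All 10 passed the filter on low counts and were among the 19103 genes tested. The cells were ASC52telo, a single MSC line from adipose tissue that telomerase expression made immortal, so this transgene was carried by all groups and no other donor was examined. Every group was kept in α-MEM with 10% fetal bovine serum. The MmC+/GDF11- and MmC+/GDF11+ groups, called senescent, had been exposed to MmC, an agent that alkylates DNA, at 1.5 µg/mL for 18 h. The MmC-/GDF11- and MmC-/GDF11+ groups had not, and are called young. Recombinant GDF11, a member of the same superfamily of ligands that signals through SMAD2 and SMAD3, was present at 10 ng/mL over the following 10 days in MmC-/GDF11+ and MmC+/GDF11+. Each group had 4 biological replicates, which gave 16 libraries of poly(A) RNA collected on day 10. All libraries carried the same sequencing run label, so no split by run was possible, although the study names batch effects among its limitations.

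TGF-beta ligands are secreted as precursors that stay bound to their own propeptide, and this latent complex is usually coupled to a latent TGF-beta binding protein (LTBP) that anchors it to fibronectin and fibrillin microfibrils. Integrins and proteases free the ligand, which then binds the type II receptor TGFBR2. The type II receptor recruits and phosphorylates the type I receptor TGFBR1, and SMAD2 and SMAD3 carry the signal to the nucleus. In MSCs and other stromal cells the pathway is known for driving matrix production and restraining proliferation, and it is a recognised part of the secretory programme of senescent cells.

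Total counts per library lay between 71275337 and 144204979, with a median of 86044010, and the factors of the TMM scaling between 0.916 and 1.05. Levels are given as CPM, counts scaled to a common library size after the TMM correction. The 6 MSC surface markers NT5E, THY1, ENG, CD44, ITGB1 and PDGFRB were present in every library, with a summed level of 5089 to 6696 CPM. ENG and ITGB1 are also in the pathway lists described further on. The summed level of 6 haematopoietic markers was 9.71 to 21.9 CPM, and HLA-DRA was at 0 counts in all 16 libraries. The 4 epithelial markers moved with MmC, from 37.4 to 59.3 CPM in the young groups to 9.36 to 21.4 CPM in the senescent groups, nearly all of it KRT18, while EPCAM did not exceed 0.0582 CPM. The 4 adipocyte markers summed to 0.0536 to 0.26 CPM in the young and 0.366 to 1.50 CPM in the senescent groups. The sum of 5 endothelial markers was 47.5 to 111 CPM and that of 4 smooth muscle markers 91.4 to 164 CPM over all groups, mostly TEK and SMTN. The part of these marker shifts in the results was not tested.

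The 10 genes lie on 7 chromosomes of hg38. TGFB1 (ENSG00000105329.11, chromosome 19, 41301587 to 41353922, minus strand) and LTBP4 (ENSG00000090006.18, chromosome 19, 40592883 to 40629818, plus strand) share a chromosome. So do TGFB3 (ENSG00000119699.8, chromosome 14, 75958097 to 75983011, minus strand) and LTBP2 (ENSG00000119681.12, chromosome 14, 74498183 to 74612378, minus strand). TGFB2 (ENSG00000092969.12, chromosome 1, 218345336 to 218444619, plus strand) and TGFBR3 (ENSG00000069702.11, chromosome 1, 91680343 to 91906335, minus strand) are on chromosome 1. The other genes are LTBP1 (ENSG00000049323.16, chromosome 2, 32946953 to 33399509, plus strand), TGFBR2 (ENSG00000163513.19, chromosome 3, 30606601 to 30694142, plus strand), TGFBI (ENSG00000120708.17, chromosome 5, 136028988 to 136063818, plus strand) and LTBP3 (ENSG00000168056.17, chromosome 11, 65538559 to 65558930, minus strand). Counts are sums over the exons of a gene, so no single exon or isoform is measured. Some of these exons are shared with other genes: on the opposite strand HNRNPUL1, at 213 to 382 CPM, overlaps 6.59% of the exonic bases of TGFB1. On the same strand TGFB2-OT1 covers 22.7% of the exonic bases of TGFB2 and had 0 counts in every library. The strand setting of the counting is not given in the sources used here, so reads of these overlaps cannot be assigned with certainty.

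The 250 bases before the first annotated start are shown for TGFB2, LTBP1 and TGFBI. These are the genes higher in both senescent groups whose first RefSeq start equals the gene start in GENCODE. TGFBR2 and LTBP3, also higher in both, did not meet this rule. LTBP1 has further annotated starts, with windows at chr2:33134119-33134418 and chr2:33134346-33134645, which are not shown. The stretches were taken from RefSeq (GRCh38.p14, plus strand, 5′ to 3′) at chr1:218345086-218345335, chr2:32946703-32946952 and chr5:136028738-136028987. Capitals mark an E-box (CACGTG) and a TATA box (TATAAA) for TGFB2, a cyclic AMP response element (TGACGTCA) for LTBP1, and GC boxes (GGGCGG on either strand) for TGFBI.
TGFB2 promoter: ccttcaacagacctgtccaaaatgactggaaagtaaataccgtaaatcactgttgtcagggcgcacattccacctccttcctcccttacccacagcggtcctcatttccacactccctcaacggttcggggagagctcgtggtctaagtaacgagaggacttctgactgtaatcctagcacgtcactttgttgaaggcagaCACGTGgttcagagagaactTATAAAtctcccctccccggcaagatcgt
LTBP1 promoter: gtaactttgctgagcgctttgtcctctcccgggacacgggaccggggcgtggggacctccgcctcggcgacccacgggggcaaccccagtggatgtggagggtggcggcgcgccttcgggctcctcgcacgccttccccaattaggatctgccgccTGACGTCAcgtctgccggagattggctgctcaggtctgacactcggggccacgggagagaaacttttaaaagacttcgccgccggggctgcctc
TGFBI promoter: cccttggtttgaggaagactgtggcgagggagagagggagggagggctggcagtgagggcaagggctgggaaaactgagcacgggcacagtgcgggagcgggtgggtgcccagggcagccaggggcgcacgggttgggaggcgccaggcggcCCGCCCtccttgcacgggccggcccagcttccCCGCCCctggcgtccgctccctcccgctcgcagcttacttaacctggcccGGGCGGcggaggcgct
The 3 stretches differed in base composition, with a GC content of 50.4% for TGFB2, 66.4% for LTBP1 and 72.8% for TGFBI. All 10 genes matched RefSeq, with 16 windows of 250 bases before to 50 bases after a start, since several have more than 1 annotated start. On both strands, CACGTG was in the windows of TGFB2 and TGFB3 and in 7.26% of all 35116 windows. TATAAA was likewise in windows of TGFB2 and TGFB3, at 29 and 30 bases before the start, and in 11.5% of all windows. TGACGTCA was in 1 window of LTBP1 and in 1.85% of all windows, and the AP-1 site TGACTCA was in 1 window of TGFBR2 and in 4.95% of all windows. GGGCGG was in 9 of the 16 windows, from 7 genes, and in 45% of all windows. The palindrome GTCTAGAC, a letter sequence that SMAD proteins bind, was in none of the 16 windows and in 0.202% of all windows. These matches describe letters in the windows only.

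The first question of the design was what MmC changed. In MSCs without GDF11, 6 of the 10 genes passed the test (edgeR's quasi-likelihood test, Benjamini-Hochberg adjusted p under 0.05 over all 19103 genes), with TGFB2, TGFBR2, LTBP1, LTBP3 and TGFBI higher and LTBP4 lower in senescent MSCs. Over all genes tested 45.3% were called, 22.9% higher and 22.4% lower. With GDF11, 5 of the 10 genes passed, the same 5 and all higher, against 46.7% of all genes, 23.4% higher and 23.3% lower. The 2 comparisons share no library, but both came from 1 fit to all 16 libraries. Same-numbered senescent libraries with and without GDF11 also deviated together from their group means (Pearson's r 0.448 to 0.818). The 2 comparisons are therefore not independent. The 4 senescent libraries lay wholly above the 4 young ones for these 5 genes in both comparisons. Over all genes the groups did not overlap for 37.3% without and 41.5% with GDF11, and the senescent group was the higher for 19.1% and 20.2%. The median log2 fold change of the 10 genes was 0.58 without and 0.56 with GDF11, beside -0.01 over all genes tested in both. In bulk RNA, fewer cells with a transcript and less of it per cell cannot be told apart. The p-values measure the spread between replicate cultures of this line.

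**Figure D1:**
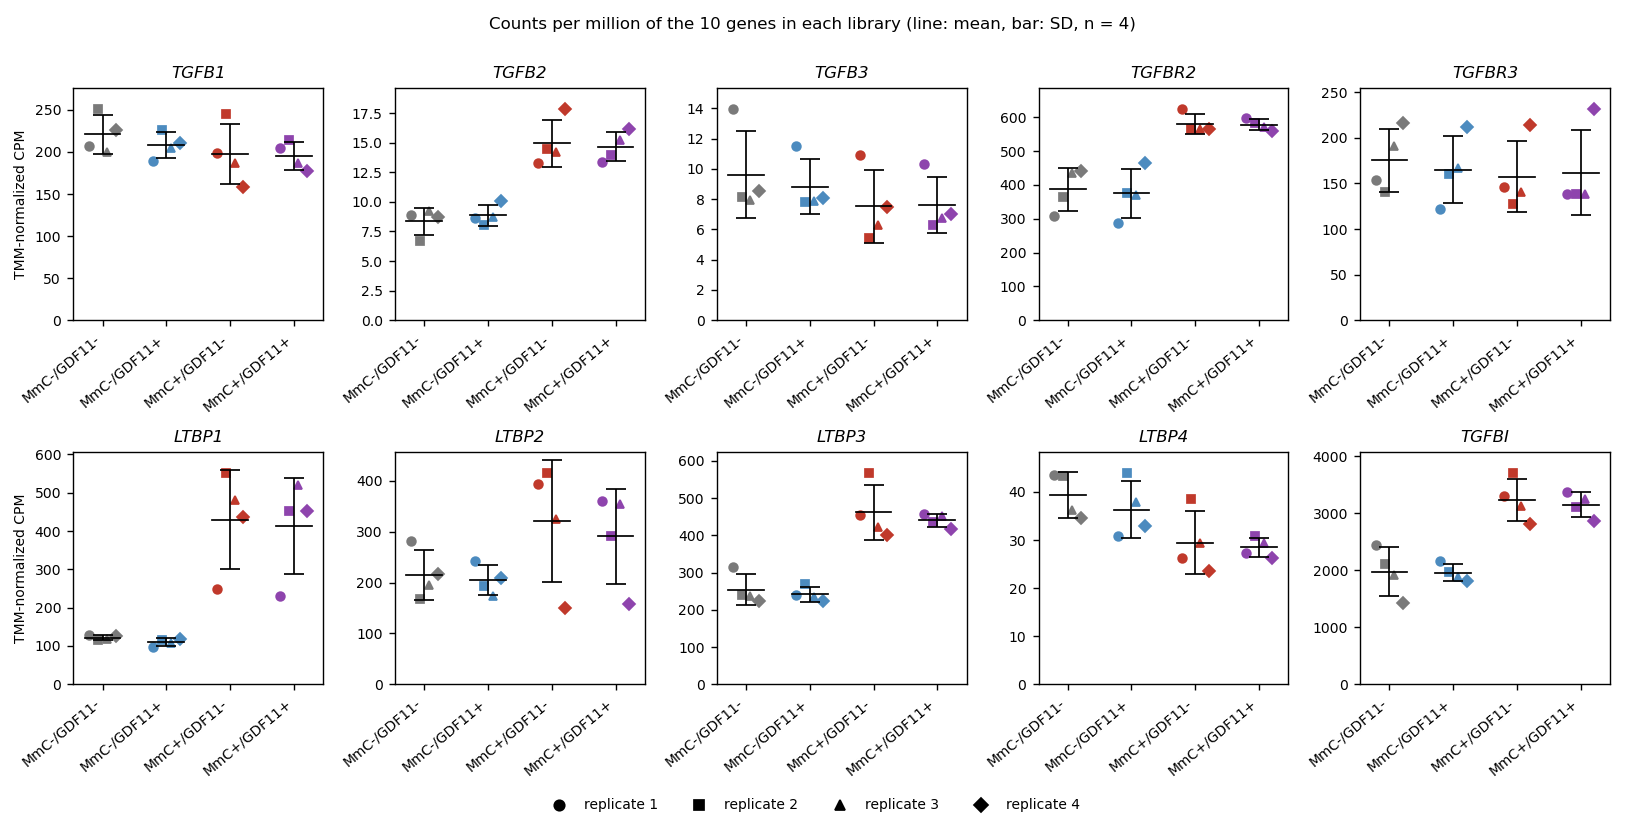
TMM-normalized CPM (vertical axes, linear, from 0) of the 10 genes in each of the 16 libraries, by group; points are libraries with a marker shape for each replicate number, horizontal lines are group means and bars are SD (n = 4). LTBP1 lay at 97.9 to 129 CPM in the 8 young and at 229 to 551 CPM in the 8 senescent libraries, whereas the groups of TGFB1 overlapped throughout.

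TGFB1, the ligand most widely expressed in mesenchymal cells, was by far the most abundant of the ligands per length and was not called. Its level was 207, 251, 199.9 and 226 CPM for replicates 1 to 4 of the MmC-/GDF11- group, and 199, 245, 187 and 158 CPM for those of MmC+/GDF11-. Where GDF11 was given it was 189, 226, 205 and 211 CPM in the young and 205, 214, 187 and 177 CPM in the senescent group. Replicate 2 had the highest value in all 4 groups, and the groups overlapped. The log2 difference was -0.16 (95% interval -0.42 to 0.09, adjusted p = 0.286) without and -0.09 (-0.34 to 0.17, adjusted p = 0.584) with GDF11 by edgeR's quasi-likelihood test.

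TGFB2, a ligand with a strong need for the co-receptor TGFBR3, rose in senescent MSCs from a low level. It was at 8.85, 6.71, 9.19 and 8.68 CPM in MmC-/GDF11- and at 13.2, 14.5, 14.2 and 17.8 CPM in MmC+/GDF11-. In the groups with GDF11 it was at 8.66, 8.01, 8.74 and 10.1 CPM in young and at 13.3, 14.0, 15.2 and 16.2 CPM in senescent MSCs. Every senescent library was above every young one. The difference was 1.79-fold (95% interval 1.49 to 2.14, adjusted p = 5.4e-05) without and 1.65-fold (1.38 to 1.98, adjusted p = 0.00019) with GDF11 (edgeR's quasi-likelihood test). The counts behind these levels were 597 to 2231 per library.

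TGFB3, the ligand best known from palate and wound repair, was about as scarce as TGFB2, and its highest value came from the same replicate number in every group. Its level was 13.9, 8.14, 7.92 and 8.51 CPM in MmC-/GDF11- and 10.9, 5.43, 6.27 and 7.52 CPM in MmC+/GDF11-. In the presence of GDF11 it was 11.5, 7.81, 7.89 and 8.11 CPM in the young and 10.4, 6.28, 6.76 and 7.03 CPM in the senescent group. Replicate 1 was the highest in all 4 groups. The log2 difference between senescent and young MSCs was -0.35 (SE 0.24, adjusted p = 0.239) without and -0.22 (SE 0.24, adjusted p = 0.476) with GDF11 by edgeR's quasi-likelihood test, and neither passed. The same-numbered libraries of the comparison without GDF11 deviated together, and with the replicate number as a block TGFB3 fell by 0.36 on the log2 scale (adjusted p = 0.00207, edgeR). All 4 same-numbered pairs had a ratio of senescent to young under 1, from 0.667 to 0.883. The same held for TGFB1 (0.702 to 0.977) and TGFBR3 (0.735 to 0.992), which were not called with the block. Such ratios were not counted over all genes. TGFB3 was also called without replicate 1 of every group (log2 -0.35, adjusted p = 0.0202).

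Per kilobase of exon, TGFB1 made up 95.4% ± 1.15 (SD, n = 4) of the summed level of the ligands in MmC-/GDF11- and 93.7% ± 1.62 in MmC+/GDF11-. The share of TGFB2 was 1.98% ± 0.418 without and 2.21% ± 0.269 with GDF11 in young MSCs, and 3.96% ± 1.12 without and 3.83% ± 0.622 with GDF11 in senescent MSCs. TGFB3 held 2.63% ± 0.897, 2.56% ± 0.696, 2.31% ± 0.827 and 2.28% ± 0.510 in the same order. By mean share the rank of the minor ligands was thus TGFB3 before TGFB2 in the young and TGFB2 before TGFB3 in the senescent groups. Not every young library followed it: in replicate 4 of MmC-/GDF11+ TGFB2 held 2.46% and TGFB3 2.29%. In replicate 3 of MmC-/GDF11- both held 2.36%. The length used for TGFB2 includes the 22.7% of its exonic bases shared with TGFB2-OT1. Whether reads there were counted is not known, so the young order is uncertain. With the length of the canonical transcript in place of all exons, chosen after seeing the data, the share of TGFB1 was 94.9% and 93.5% in the groups without GDF11. These shares describe RNA and were not tested.

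TGFBR2, the type II receptor kinase that binds the ligand first, rose in senescent MSCs, and its values there lay closer together. It was at 309, 364, 436 and 441 CPM in MmC-/GDF11- and at 624, 565, 566 and 567 CPM in MmC+/GDF11-. With GDF11 added it was at 288, 377, 371 and 466 CPM in young and at 597, 582, 572 and 560.1 CPM in senescent MSCs. The coefficient of variation was 16.3% and 19.3% in the young groups and 4.99% and 2.74% in the senescent groups without and with GDF11, a difference in spread that was not tested. The increase was 1.50-fold (95% interval 1.23 to 1.82) without and 1.54-fold (1.26 to 1.87) with GDF11, with adjusted p of 0.00224 and 0.00135 (edgeR's quasi-likelihood test).

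TGFBR3, also called betaglycan, is a co-receptor with a large proteoglycan ectodomain that presents ligand to TGFBR2. It was not called in either comparison. Its level ran from 141 to 216 CPM in young MSCs and from 128 to 214 CPM in senescent MSCs without GDF11, and from 122 to 212 CPM and from 138 to 231 CPM in those with GDF11. Replicate 4 was the highest in each of the 4 groups, and in MmC+/GDF11+ the other replicates were at 138, 138 and 139 CPM. The log2 difference was -0.16 (95% interval -0.61 to 0.30) without and -0.03 (-0.49 to 0.42) with GDF11, and the sign of the latter changed with upper-quartile scaling, with a stricter filter and in 6 leave-outs.

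LTBP1, which links latent TGF-beta to fibronectin and fibrillin in the matrix, showed the largest difference of the 10 genes. Its level was 129, 114, 119 and 126 CPM in MmC-/GDF11- and 249, 551, 482 and 437 CPM in MmC+/GDF11-. Under GDF11 the level was 97.9, 117, 108 and 118 CPM in young and 229, 452, 519.8 and 452 CPM in senescent MSCs. Replicate 1 was the lowest in both senescent groups and still stood above every young library. LTBP1 was 3.53-fold higher (95% interval 2.50 to 4.97, adjusted p = 1.84e-05) without and 3.75-fold higher (2.66 to 5.29, adjusted p = 1.18e-05) with GDF11 by edgeR's quasi-likelihood test. Without replicate 1 of every group the log2 fold changes were 2.03 and 2.06, beside 1.82 and 1.91 with it. The young replicates varied by 5.39% and 8.57% and the senescent ones by 30.1% and 30.6% (coefficient of variation, without and with GDF11).

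LTBP2 resembles the other LTBPs in sequence but binds fibrillin and the elastic fibre machinery rather than latent TGF-beta. It did not pass the test. It was at 281, 167, 195 and 217 CPM in MmC-/GDF11- and at 394, 415, 325 and 150.3 CPM in MmC+/GDF11-. With GDF11 the gene was at 242, 193, 173 and 209.7 CPM in young and at 359, 291, 353 and 158 CPM in senescent MSCs. In each senescent group 3 replicates were above all 4 young libraries and replicate 4 was below all of them. The log2 difference was 0.58 (95% interval -0.04 to 1.20, adjusted p = 0.117) without and 0.51 (-0.11 to 1.12, adjusted p = 0.166) with GDF11 (edgeR's quasi-likelihood test). Without the senescent replicate 4 alone the gene was called, at log2 0.82 (adjusted p = 0.0121) without and 0.72 (adjusted p = 0.0414) with GDF11.

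LTBP3, which binds latent complexes and aids their secretion, rose almost equally in both comparisons. It was at 314, 240.1, 238 and 224 CPM in MmC-/GDF11- and at 455, 567, 423 and 401 CPM in MmC+/GDF11-. With GDF11 it was at 239, 269, 233 and 224 CPM in young and at 458, 436, 452 and 418 CPM in senescent MSCs. No senescent library was below 401 CPM and no young one above 314 CPM. The fold was 1.82 (95% interval 1.52 to 2.17, adjusted p = 4.42e-05) without and 1.83 (1.53 to 2.19, adjusted p = 3.95e-05) with GDF11 by edgeR's quasi-likelihood test.

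LTBP4, a protein of elastic fibre assembly that binds latent TGFB1 only weakly, was the only one of the 10 genes called as lower in the fit without a replicate block. It was at 43.5, 43.3, 36.2 and 34.5 CPM in MmC-/GDF11- and at 26.2, 38.6, 29.3 and 23.5 CPM in MmC+/GDF11-. With GDF11 it was at 30.8, 43.9, 37.9 and 32.8 CPM in young and at 27.3, 30.9, 29.3 and 26.3 CPM in senescent MSCs. The groups overlapped in both comparisons, through replicate 2 of MmC+/GDF11- and replicate 1 of MmC-/GDF11+. LTBP4 fell by 0.42 on the log2 scale without GDF11 (SE 0.14, adjusted p = 0.0255), and the value with GDF11 was -0.35 (SE 0.14, adjusted p = 0.055), both from edgeR's quasi-likelihood test. With the replicate number as a block, LTBP4 fell by 0.44 without GDF11 (adjusted p = 0.000863, edgeR). There all 4 same-numbered pairs had a ratio of senescent to young under 1, from 0.603 to 0.891, as they did for TGFB1, TGFB3 and TGFBR3. Without the block, leaving out any of 5 single libraries (replicates 1 and 2 of MmC-/GDF11- or replicates 1, 3 and 4 of MmC+/GDF11-) ended the call, at log2 values of -0.42 to -0.32 and adjusted p of 0.0524 to 0.0943 (edgeR), as did fitting only the compared groups (-0.40, adjusted p = 0.0642). With GDF11, 5 alternatives gained the call, among them the fit of only the compared groups (-0.33, adjusted p = 0.0422). The test of the difference between the 2 comparisons gave a log2 value of 0.07 (95% interval -0.36 to 0.50).

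The summed level of the 4 LTBP genes per kilobase of exon was 67.2 ± 9.51 CPM (SD, n = 4) without and 63.0 ± 3.13 CPM with GDF11 in young MSCs, and 138 ± 27.5 CPM without and 130.0 ± 17.6 CPM with GDF11 in senescent MSCs. LTBP1 held 24.9% ± 2.24 of it in MmC-/GDF11- and 42.4% ± 10.2 in MmC+/GDF11-, with 23.9% ± 2.26 and 42.8% ± 10.6 in the groups with GDF11. The share of LTBP2 was 35% and 35.7% in the young and 25.5% and 24.7% in the senescent groups, and that of LTBP3 32.8% and 33.3% in the young and 29.4% and 29.8% in the senescent groups, each without and with GDF11. LTBP4 held 7.29% and 7.13% in the young and 2.63% and 2.72% in the senescent groups. The leading LTBP by mean share was therefore LTBP2 in young and LTBP1 in senescent MSCs. Single libraries differed: LTBP3 was ahead of LTBP2 in replicate 2 of both young groups and in replicate 3 of MmC-/GDF11+. In replicate 1 of both senescent groups LTBP1 was behind LTBP2 and LTBP3. The order of the means also depended on the length used. By canonical transcripts LTBP3 led in all 4 groups, with 50.2%, 50.7%, 46.7% and 47.1%, and LTBP1 held 18.1%, 17.3%, 32.1% and 32.3%. Like those of the ligands, these shares were not tested.

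**Figure D2:**
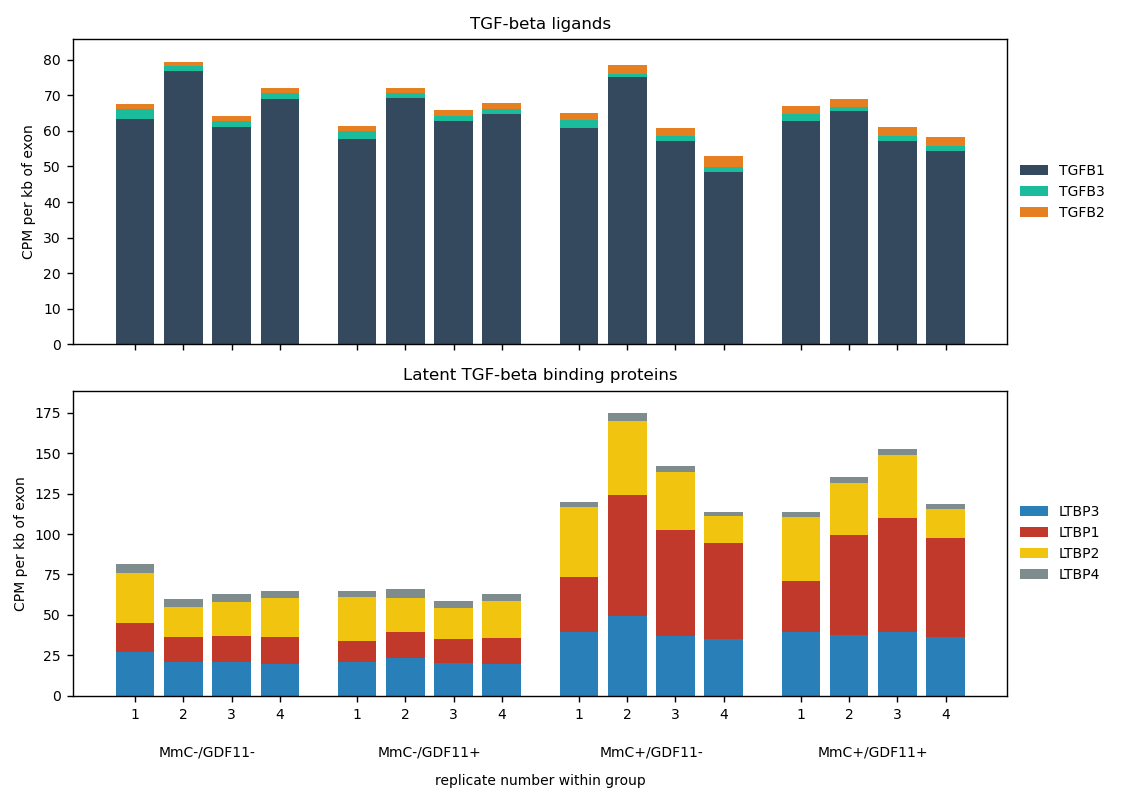
Level per kilobase of exon (CPM per kb, stacked, from 0) of the ligands (top) and of the LTBP genes (bottom) in each of the 16 libraries, by group and replicate number. TGFB1 fills nearly the whole of each ligand bar, and the summed LTBP level of 58.7 to 81.2 in the young libraries lies below the 114 to 175 of the senescent libraries, with the LTBP1 segment larger in the latter.

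TGFBI, an extracellular matrix protein that is induced by TGF-beta and binds collagens and integrins, was the most abundant of the 10 genes in every group. Its level was 2445, 2104, 1919 and 1421 CPM in MmC-/GDF11- and 3296, 3700.2, 3132 and 2810.4 CPM in MmC+/GDF11-. With GDF11 its level was 2155, 1971, 1881 and 1813 CPM in young and 3366, 3117, 3248 and 2869.7 CPM in senescent MSCs. The groups did not overlap, and replicate 4 was the lowest in all 4 of them. The increase was 1.64-fold (95% interval 1.33 to 2.03, adjusted p = 0.000906) without and 1.61-fold (1.30 to 1.99, adjusted p = 0.00116) with GDF11 by edgeR's quasi-likelihood test.

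Ordered by level per kilobase of exon in MmC-/GDF11-, TGFBI (256 CPM per kb) was followed by TGFB1 (67.6), TGFBR2 (56.6), LTBP2 (23.7), LTBP3 (22.1), TGFBR3 (20.4), LTBP1 (16.6), LTBP4 (4.86), TGFB3 (1.84) and TGFB2 (1.38). The ranges over the 4 libraries overlapped between TGFB1 and TGFBR2, along LTBP2, LTBP3, TGFBR3 and LTBP1 from each to the next, and between TGFB3 and TGFB2. In MmC+/GDF11- the order was TGFBI (419 CPM per kb), TGFBR2 (84.7), TGFB1 (60.5), LTBP1 (58.5), LTBP3 (40.1), LTBP2 (35.4), TGFBR3 (18.3), LTBP4 (3.63), TGFB2 (2.47) and TGFB3 (1.44). There the neighbours overlapped in range from TGFB1 down to TGFBR3 and between LTBP4 and TGFB2. By canonical transcript length TGFBR2 came before TGFB1, and LTBP3 before TGFBR3 and LTBP2, already in MmC-/GDF11-.

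**Figure D3:**
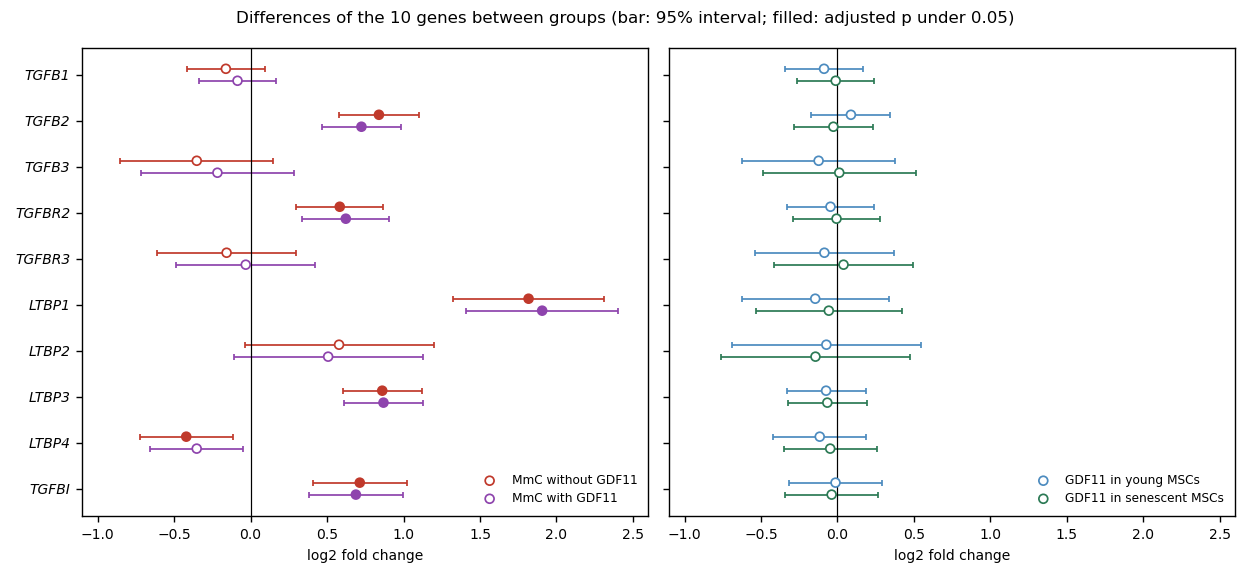
Log2 fold changes (horizontal axes) of the 10 genes with 95% intervals, for MmC without and with GDF11 (left) and for GDF11 in young and senescent MSCs (right); filled points passed an adjusted p of 0.05 by edgeR's quasi-likelihood test. On the left 6 points without and 5 with GDF11 are filled, and on the right none is, with every interval crossing 0.

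The second question was what GDF11 changed. None of the 10 genes was called for GDF11 in young MSCs, in senescent MSCs or in the interaction of MmC and GDF11 (edgeR's quasi-likelihood test), and none had an unadjusted p under 0.05. Over all 19103 genes 0% were called in each, while 226 genes (1.18%), 96 genes (0.503%) and 172 genes (0.9%) had an unadjusted p under 0.05. With no effect on any gene a share of about 0.05 would have been usual, so this test was conservative here. The lack of calls therefore does not show that GDF11 had no effect. With limma-voom 0 genes were called in all 3, and with DESeq2 1 gene, not of the 10, in young MSCs. The log2 differences of the 10 genes ran from -0.15 (LTBP1) to 0.09 (TGFB2) in young MSCs and from -0.14 (LTBP2) to 0.04 (TGFBR3) in senescent MSCs. In the fit without a replicate block, their 95% intervals lay within -0.69 to 0.54 and within -0.76 to 0.51, the outer bounds being those of the widest gene, LTBP2, except the upper one in senescent MSCs, which was that of TGFB3. The narrowest intervals belonged to TGFB1, TGFB2 and LTBP3: for TGFB1 in young MSCs the interval of the fold was 0.789 to 1.12, and in senescent MSCs the log2 interval was -0.27 to 0.24. For LTBP1, with a wider spread, the interval of the fold in young MSCs was 0.648 to 1.26. All these intervals come from the fit without a block, also in senescent MSCs, where the replicate numbers were taken as pairs. With the block no gene of the 10 was called for GDF11 either. The groups with and without GDF11 overlapped for all 10 genes, whereas 0.89% of all genes did not overlap in young and 0.503% in senescent MSCs. The interaction ran from -0.11 (TGFB2) to 0.14 (TGFB3). Comparisons with GDF11 share libraries with those of MmC and are not independent of them.

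Replicate numbers left a mark on several of the genes. LTBP3 and TGFBI both had their lowest value in replicate 4 of all 4 groups, and TGFBR3 its highest. After subtracting group means, Pearson's r over the 16 libraries was 0.78 between LTBP3 and TGFBI, 0.75 between LTBP3 and LTBP4, 0.75 between TGFB1 and LTBP4, 0.71 between TGFB2 and TGFBR3 and -0.75 between TGFBR3 and TGFBI. These 16 points share replicate numbers and library scaling and are given as a description.

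Across the 16 libraries and 10967 protein-coding genes, the genes with a pattern most like TGFB1 were TRAF7 (Pearson's r 0.93), TATDN2 (0.92) and IRF2BP1 (0.91). Most like TGFB2 were LMAN1 (0.99), ENTPD4 (0.98) and HIVEP2 (0.98). LMAN1, a cargo receptor of the early secretory pathway, had a log2 fold change of 0.77 after MmC without GDF11, ENTPD4 of 0.65 and HIVEP2 of 1.13. These genes were picked by their likeness to TGFB2 over the same libraries. A rise alongside TGFB2 therefore followed from the choice and is no separate result. Most like TGFB3 were GFRA1 (0.96), PODN (0.95) and FSTL1 (0.95). All points share the groups and libraries, so these values only rank the genes.

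The other genes of the pathway were followed in 5 lists with 75 genes, of which 73 could be tested, MMP9 and ITGB6 being filtered out. Of the 73, 38 were called for MmC without GDF11, 27 higher and 11 lower, and 37 with GDF11, 28 higher and 9 lower. The share of all genes called was 45.3% and 46.7%, as above. Of the 5 receptors and co-receptors outside the 10 genes, 1 was called, TGFBR1, the type I receptor kinase that TGFBR2 phosphorylates. It was at 53.9, 30.9, 42.5 and 39.3 CPM in MmC-/GDF11- and at 93.0, 92.2, 88.2 and 73.7 CPM in MmC+/GDF11-. Both kinases of the receptor complex were thus higher in every senescent library than in any young one.

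The list with the largest share of calls was that on activation of latent TGF-beta, which also holds genes with other roles, such as TGM2. Of 16 tested genes 12 rose without and 13 with GDF11, and none fell, with a median log2 fold change of 0.87 and 0.85. Among all genes 22.9% were higher without and 23.4% with GDF11. The lists were drawn up with earlier results of these data known, so these counts and the order of the lists only describe. ITGB3, the integrin subunit that forms a receptor for the latent propeptide with ITGAV, was at 14.4 to 18.9 CPM in MmC-/GDF11- and at 41.3 to 49.7 CPM in MmC+/GDF11- (log2 fold change 1.46, adjusted p = 1.09e-07, edgeR). ITGB5, a further partner of ITGAV, rose by a log2 fold change of 0.86 without and 0.81 with GDF11. MMP2, a secreted gelatinase, was at 939 to 1370.5 CPM in MmC-/GDF11- and at 1904 to 2929 CPM in MmC+/GDF11- (log2 fold change 1.23). TGM2, the transglutaminase that crosslinks LTBPs to the matrix, had the largest difference of the lists, with 9.64, 8.27, 6.02 and 11.0 CPM in MmC-/GDF11- and 105, 948, 677 and 281 CPM in MmC+/GDF11-. Replicate 1 was the lowest of the senescent replicates for TGM2, as it was for LTBP1. The log2 fold change of TGM2 was 5.85 (SE 0.74, adjusted p = 2.04e-05) without and 5.40 (SE 0.72, adjusted p = 3.41e-05) with GDF11. BMP1, ITGB8 and PCSK6 were not called in either comparison. ITGAV itself was not called without GDF11 (log2 difference 0.51, adjusted p = 0.0789, edgeR), and its groups overlapped there.

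Of the 14 microfibril and matrix partners of LTBPs, 2 were called higher and 5 lower without GDF11 and 2 higher and 4 lower with it, while 7 and 8 were not called. Over all genes 22.9% were higher and 22.4% lower without GDF11, and 23.4% and 23.3% with it, so the share called was near that background. FN1, fibronectin, to which LTBP1 is anchored, was at 8821 to 14609 CPM in MmC-/GDF11- and at 17188 to 26686 CPM in MmC+/GDF11- (log2 fold change 0.76, adjusted p = 0.00384, edgeR). MFAP2, a glycoprotein of microfibrils, fell by 0.90 on the log2 scale without and by 0.78 with GDF11. ADAMTSL2, a secreted glycoprotein that binds LTBP1, was low throughout and fell, with 0.328 to 0.52 CPM in MmC-/GDF11- and 0.0405 to 0.15 CPM in MmC+/GDF11-. MFAP4 fell by 2.04 and by 1.57, and FBLN1, fibulin-1, rose by 1.05 and 1.27 on the log2 scale. Replicate 1 was the highest in all 4 groups for MFAP4 and FBLN1. The value of MFAP4 without GDF11 was -1.40, and MFAP4 was still called, without replicate 1 of MmC-/GDF11-, which stood at 294 CPM beside 77.3 to 100.1 CPM in the others of its group. Without GDF11 the call of FBLN1 was lost in 4 leave-outs of a single library, where its log2 value was as low as 0.71, and with GDF11 that of MFAP4 was lost without replicate 1 of MmC-/GDF11+ (log2 -1.25, adjusted p = 0.0535, edgeR). FBN1, fibrillin-1, was not called, with a log2 difference of -0.14 without and -0.06 with GDF11.

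Of 14 antagonists and feedback regulators, 6 rose and 4 fell in both comparisons. Beside this, 22.9% of all genes were higher and 22.4% lower without GDF11, and 23.4% and 23.3% with it. SMAD6, an inhibitory SMAD best known for restraining the BMP branch, was at 24.6 to 33.6 CPM in MmC-/GDF11- and at 6.29 to 8.33 CPM in MmC+/GDF11-, and fell by 1.98 on the log2 scale (adjusted p = 1.1e-06, edgeR). The corepressors TGIF1 and TGIF2 went in opposite directions, with log2 fold changes of 0.96 and -1.27 without and 0.96 and -1.04 with GDF11. PMEPA1, which sequesters SMAD2 and SMAD3, was called as higher but stood near the limit of detection, at 0.0193 to 0.065 CPM in MmC-/GDF11- and 0.207 to 1.25 CPM in MmC+/GDF11-, so no fold is given.

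Of 24 target genes of SMAD2 and SMAD3, 6 rose and 2 fell without GDF11 and 6 rose and 1 fell with it. Over all genes 22.9% were higher and 22.4% lower without GDF11, and 23.4% and 23.3% with it. The share that rose was near that background and the share that fell was below it, a difference that was not tested. TSC22D1 (log2 fold change 1.02 and 1.05), CDKN2B (0.85 and 0.87) and KLF10 (0.75 and 0.82) rose without and with GDF11. CDKN2B encodes an inhibitor of cyclin-dependent kinases and KLF10 a transcription factor of the early response to TGF-beta. IL11, a cytokine of stromal cells, was at 0.897 to 1.34 CPM in MmC-/GDF11- and at 1.98, 90.7, 54.7 and 25.7 CPM in MmC+/GDF11-, and with GDF11 replicate 1 was again far below the other senescent replicates, at 1.94 CPM beside 21.9 to 60.0 CPM. SNAI2, a transcription factor of mesenchymal cells, fell by 0.82 without and by 0.72 with GDF11 on the log2 scale. None of the 73 genes was called for GDF11 in young MSCs, in senescent MSCs or in the interaction (edgeR), and none had an unadjusted p under 0.05.

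**Figure D4:**
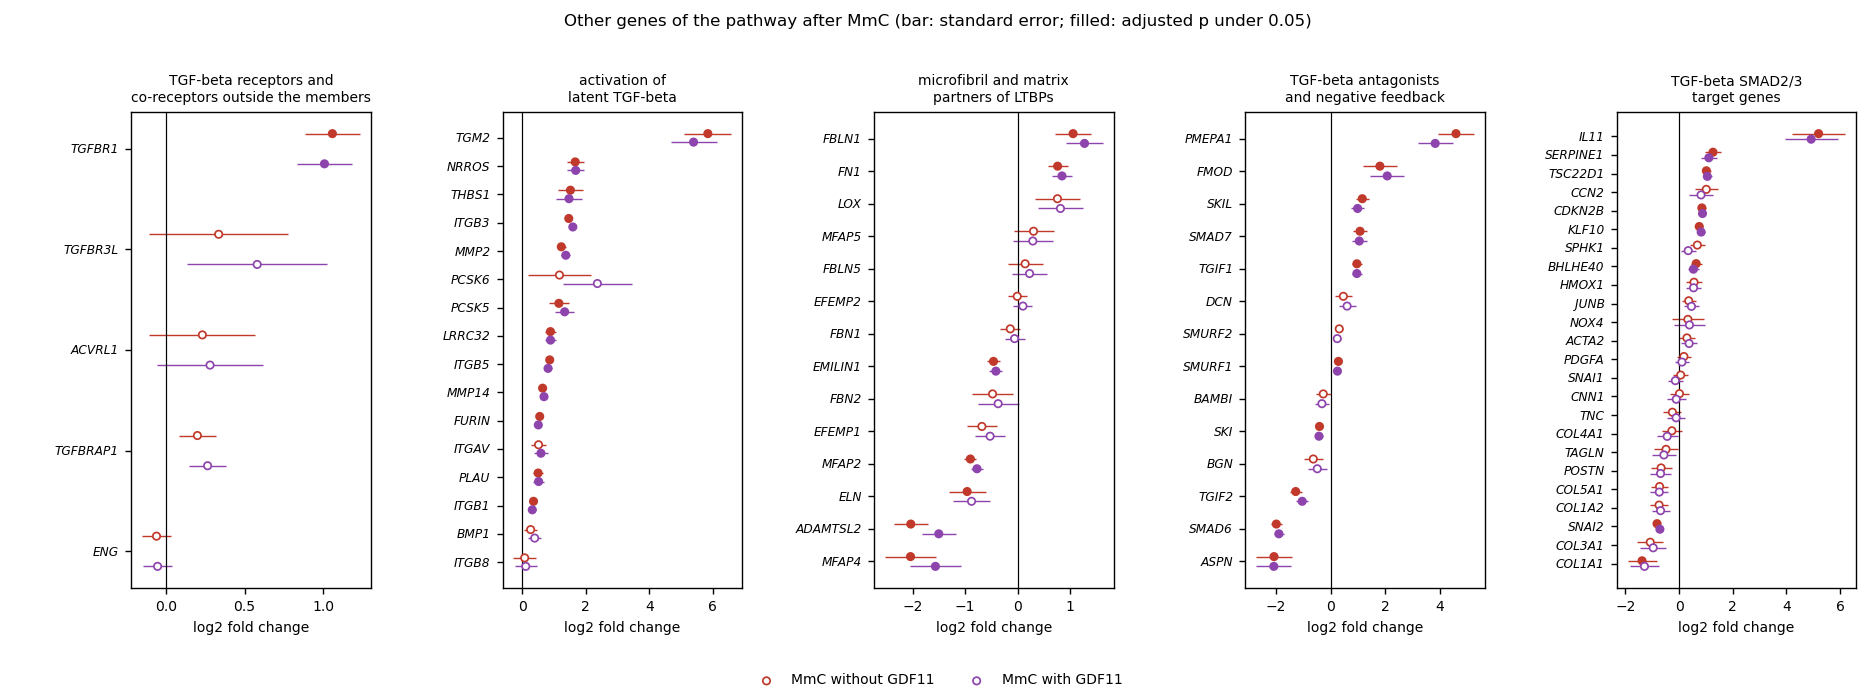
Log2 fold changes (horizontal axes, with a scale for each panel) after MmC without and with GDF11 of the 73 tested genes in 5 lists of the pathway; bars are standard errors and filled points passed an adjusted p of 0.05. All 16 points of each comparison in the panel on activation of latent TGF-beta lie above 0, and the other panels but the receptors hold filled points on both sides.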

How the data were processed

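The authors sequenced poly(A) RNA with a directional kit, aligned reads to hg38 with HISAT2 2.2.1, counted them on GENCODE V38 genes with featureCounts 2.0.1 and deposited raw counts per gene without normalization. The strand setting, the counting of pairs and the treatment of multiply aligned reads are not given in the sources used here. Intervals and p-values rest on the spread between replicates.

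From these counts, CPM, fold changes and tests were computed in R 4.3.3 with edgeR 4.0.16: filterByExpr (minimum count 10, minimum total 15), TMM scaling, and a robust quasi-likelihood fit to all 16 libraries with 1 mean per group, since the study names no test. Benjamini-Hochberg adjustment covered 19103 genes at 0.05. Groups and replicate numbers came from the sample labels. The 10 genes, the 5 lists and the tests were chosen with earlier results of these data known. The text names all 10 genes, TGFBR1, up to 4 genes of each list and MmC comparison with the lowest adjusted p, and for each ligand the 3 genes with the highest Pearson's r of log2 CPM (prior count 2). ITGAV, ITGB6, ITGB8, MMP9, BMP1, PCSK6 and FBN1 were named after their values were seen.

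Same-numbered libraries were checked for shared deviations from group means. The MmC comparison without GDF11 (lowest correlation of a pair 0.113) and the GDF11 comparison in senescent MSCs (0.448) were taken as paired by the data. The rule was a correlation over 0.1 in every pair. In the MmC comparison with GDF11 (0.0293) and the GDF11 comparison in young MSCs (0.0982) the numbers were not taken as pairs. The latter failed through replicate 3 alone, with 0.50, 0.264 and 0.50 for replicates 1, 2 and 4. In the MmC comparison without GDF11 these had 0.368, 0.197 and 0.235, so the division between comparisons rests on the cutoff. Replicates of a group differed by 56.9 to 628 times the sampling noise of counts, so no library was merged with another as a deposit of the same data.

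The alternatives used scaling by RLE or by the upper quartile, no filter or 10 counts in every library, only the groups compared, the replicate number as a block, limma-voom (limma 3.58.1), DESeq2 1.42.0, glmTreat against a log2 fold change of 1, and leaving out each library or each replicate number. Positions and exon lengths came from GENCODE v44, where 60463 of 60649 identifiers matched. Of these steps only the edgeR fit was tested on simulated data, for MmC without GDF11. The simulated counts were independent between libraries, without deviations shared by a replicate number.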

Additional observations from a re-analysis of the deposited data

Results flagged for a closer look

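Of the 40 sets of 4 libraries formed by the 10 genes and the 4 groups, 4 held a library whose gap to its nearest neighbour relative to the range of the 4 exceeded Dixon's 95% critical value. Chance gives about 1 in 20 such sets. TGFB3 in replicate 1 stood at 13.9 CPM in MmC-/GDF11-, where the next value was 8.51 CPM, and at 11.5 CPM in MmC-/GDF11+, where the next was 8.11 CPM. TGFBR2 in replicate 1 of MmC+/GDF11- stood at 624 CPM beside 567 CPM, and TGFBR3 in replicate 4 of MmC+/GDF11+ at 231 CPM beside 139 CPM.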

How the results depend on the processing

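Over 29 alternatives, 271 of 290 log2 values of the 10 genes kept direction and call for MmC without GDF11 and 270 of 290 with GDF11, where 12 changed their call and 8 their sign. All 8 were TGFBR3, at 0.014 with upper-quartile scaling and 0.0183 with 10 counts in every library. The others were 0.0215 without replicate 2 and 0.058 without replicate 3 of every group, and 0.0442 to 0.1214 in leave-outs of a single library. Over all leave-outs, with or without a change of sign, TGFBR3 ran from -0.24 to 0.12. These totals include leave-outs of a library from a group not compared, which can move a log2 value only slightly. For TGFB2 without GDF11 such leave-outs gave 0.8465 to 0.8494, beside 0.839 in the main fit. Against a log2 fold change of 1 (glmTreat), 1 of the 10 genes was called in each MmC comparison, LTBP1, with 7 and 7 other pathway genes and 1294 and 1235 of all genes. Leaving out libraries gave 5 to 6 of the 10 genes in both, 27 to 52 and 25 to 51 other pathway genes, and 5490 to 10004 and 5505 to 10164 of all genes, lowest without replicate 3 of every group. For GDF11 in young MSCs, 0 to 1 of all genes was called over the leave-outs and 1 with DESeq2. The lowest interaction value of the 10 genes was -0.30 without MmC+/GDF11- replicate 4, beside -0.11.

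With the replicate number as a block, 7 of the 10 genes were called in both MmC comparisons, with 55 and 57 other pathway genes against 38 and 37, while the calls over all 19103 genes rose to 11066 and 11267 from 8655 and 8926. With GDF11, where the numbers were not taken as pairs, the block added TGFB3 (log2 -0.22, adjusted p = 0.0326, edgeR) and LTBP4 (-0.34, adjusted p = 0.00495). It changed no call of the 10 genes for GDF11. Without GDF11, LTBP4 had adjusted p of 0.00305 to 0.109 over the leave-outs. The line and 4 replicates a group limit what can be seen: counting error is small at these depths beside the spread between cultures.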
